A study of Rattus norvegicus with 18 samples.

Results

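Fgf21, Angptl4, Creb3l3, Pdk4, Cd36, Fabp1, Plin2 and Vnn1 were followed in the livers of rat pups whose dams had received BDE-47, a tetrabrominated diphenyl ether used as a flame retardant, in pregnancy and lactation. These 8 genes, of the 13337 genes with a named probe, were chosen by name as targets of the nuclear receptor PPAR alpha that signal the fasted state or handle fatty acids, and all 8 had a probe on the array. Wistar dams, 3 per group, were injected into the caudal vein every 5 days from GD 15 to PND 20, 6 times each. G1 received the vehicle alone, sterile water with Cremophor EL and 95% ethanol, G2 received 0.002 mg/kg BDE-47 and G3 received 0.2 mg/kg BDE-47, each in that vehicle. Food and water were freely available. The pups themselves were not injected, stayed with the dam until weaning on PND 21 and were sacrificed on PND 27, 7 days after her last injection. Livers of 6 pups per group, 3 males (replicates 1 to 3) and 3 females (replicates 4 to 6), were hybridized to Illumina RatRef-12 BeadChips, 1 array per pup. Each litter gave a male and a female, but which pups were littermates is not labelled. Any likeness between them would make the p-values between groups too small, and those between the sexes or of their interaction with exposure too large.

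PPAR alpha is the receptor through which the liver senses fatty acids. During a fast it is activated by fatty acids released from adipose tissue, pairs with RXR on DNA and raises genes of fatty acid oxidation and ketone synthesis. Around this core lie secreted signals (Fgf21, a hormone of the fasted liver, and Angptl4, an inhibitor of lipoprotein lipase), a partner transcription factor (Creb3l3), a brake on pyruvate oxidation (Pdk4), and proteins of fatty acid uptake (Cd36), binding (Fabp1) and storage (Plin2). Vnn1, a pantetheinase that splits pantetheine into pantothenate and cysteamine, is a target of the same receptor in mouse liver.

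Promoters of 7 of the 8 genes were matched by gene ID in RefSeq (build GRCr8, 250 bases before to 50 bases after the start), with 2 entries for Plin2, and they were searched on both strands for the DR1 element that PPAR alpha and RXR are known to bind, 2 copies of AGGTCA with 1 base between them. The exact element was in none of them and in 0.05% of all 33469 promoters. With copies spelled AGGNCA it was in 1 of the genes (0.42% of all promoters), and with copies spelled AGGNNA in 2 (2.93%). The 3 promoters printed here are those of Fabp1 and Creb3l3, which hold the looser matches, and of Fgf21, the gene that varied most between pups. Capitals mark the DR1-like matches in Fabp1 and Creb3l3, TATAAA in Fabp1 and Fgf21, and TTGCATCA in Fgf21, each 5′ to 3′ on the strand of the gene.
Fabp1: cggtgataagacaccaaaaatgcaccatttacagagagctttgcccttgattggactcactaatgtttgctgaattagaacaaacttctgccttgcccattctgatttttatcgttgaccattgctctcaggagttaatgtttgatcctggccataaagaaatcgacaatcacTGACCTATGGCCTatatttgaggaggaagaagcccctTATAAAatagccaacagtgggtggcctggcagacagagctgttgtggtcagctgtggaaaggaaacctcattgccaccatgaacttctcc
Creb3l3: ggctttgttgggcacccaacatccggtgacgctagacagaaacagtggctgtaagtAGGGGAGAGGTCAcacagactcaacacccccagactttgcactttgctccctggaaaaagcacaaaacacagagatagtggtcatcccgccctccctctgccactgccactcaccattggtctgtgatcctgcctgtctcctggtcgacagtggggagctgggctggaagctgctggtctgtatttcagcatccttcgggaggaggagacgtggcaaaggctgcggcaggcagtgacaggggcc
Fgf21: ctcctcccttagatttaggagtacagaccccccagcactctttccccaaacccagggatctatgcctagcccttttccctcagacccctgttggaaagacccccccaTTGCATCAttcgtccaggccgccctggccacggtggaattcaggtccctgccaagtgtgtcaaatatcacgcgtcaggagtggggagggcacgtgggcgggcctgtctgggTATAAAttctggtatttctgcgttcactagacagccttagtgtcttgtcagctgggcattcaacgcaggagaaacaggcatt
The Fabp1 promoter (chr4:104749090-104749389, plus strand) held AGGCCATAGGTCA on the opposite strand at -77 to -65 from the start and TATAAA at -40 to -35. That of Creb3l3 (chr7:9273070-9273369, plus strand) held AGGGGAGAGGTCA at -194 to -182. The Fgf21 promoter (chr1:105221327-105221626, minus strand) held TATAAA at -32 to -27. TATAAA stood in 4 of the genes and in 14.2% of all promoters. TTGCATCA, the core of the amino acid response element known from the human DDIT3 promoter, stood at -143 to -136 of Fgf21 and in 0.79% of all promoters, and was added after the sequence had been read. These motifs do not overlap each other. A match is a run of letters, not a shown binding site.

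Expression is given as the authors' log2 value, which ran from 7.61 to 15.73 over 22523 probes with a median probe of 7.84 on a scale with no zero. Array medians were 7.84 to 7.85, the arrays correlated at 0.974 to 0.995, and 73.6% of probes lay within 0.5 of the median probe. Precision is limited by the number of arrays. Of 10 hepatocyte markers 9 were measured, and albumin (Alb) read 15.44 to 15.70 in all 18 pups. The library of G3 replicate 2 stood apart in 13 measured markers of skeletal muscle: the log2 of their summed level was 15.06 there, 11.80 in G3 replicate 4 and 11.54 to 11.61 in the other 16 pups. The muscle actin Acta1 read 13.70 in that pup and 7.70 to 8.91 in the rest. The G3 differences of Fgf21, Angptl4, Creb3l3, Pdk4 and Cd36 and the correlations of Fgf21 and Angptl4 are therefore also given without that pup.

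None of the 8 genes passed an adjusted p of 0.05 in either exposed group against G1, with limma over the 12 pups of each comparison and Benjamini-Hochberg adjustment over all probes. In G2 none of the 8 was called, where 0.0133% of all probes were. At an unadjusted p of 0.05, 5 of the 8 were higher in G2 (Cd36, Angptl4, Creb3l3, Pdk4 and Fgf21) and none lower, beside 4.40% of all probes higher. In G3 none was called (0.0799% of all probes were), and at an unadjusted p 2 were higher, Pdk4 and Cd36, and none lower (8.59% of all probes were higher). Over all probes the G3 calls ran from 0 without G3 replicate 2 or 3 to 1434 without G1 replicate 6, so this share is a loose background. Of the erythroid markers 4 of 5 measured (6 listed) were also lower in G2 at an unadjusted p, with a list median of -0.19, and their part in the G2 differences was not tested. The median log2 difference of the 8 genes from G1 was 0.36 in G2 and 0.28 in G3, against medians of -0.002 and -0.003 over all genes. These backgrounds include dim probes, while the 8 genes all read above the median probe. With probes below the median probe left out, 680 of 11262 were higher unadjusted in G2 and 1487 in G3, larger shares than over all probes. In a whole liver, more transcript per cell and more cells that carry it cannot be told apart for any of these genes. Since G2 and G3 were both set against the same 6 pups of G1, their differences are not independent of each other. No gene separated the groups: in none of the 8 did every pup of G2 lie above every pup of G1 (0.213% of probes did), nor every pup of G3 (0.870%).

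**Figure D1:**
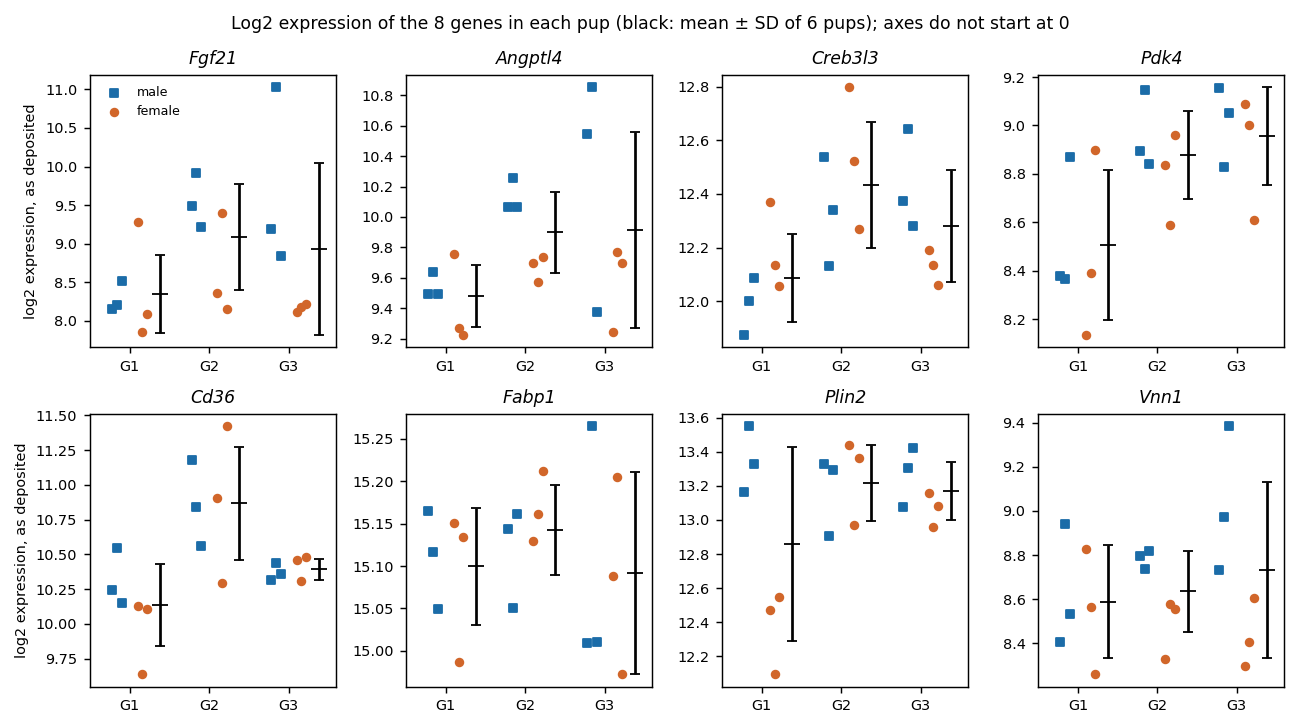
Log2 expression, as deposited, of each gene in each of the 18 pups by group, squares for males and circles for females, with the mean ± SD of 6 pups in black. Each panel has its own axis, none starting at 0, and the exposed pups overlap the G1 pups in all 8 panels.

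Fgf21 (probe ILMN_1369405, chr1:105219825-105221376, GRCr8), the fasting hormone that the liver releases into blood, ran from 7.86 to 9.28 in G1 with a median of 8.18. In G2 it ran from 8.15 to 9.92 with a median of 9.30, and in G3 from 8.11 to 11.03 with a median of 8.53. In G2 3 of the 6 pups read above the highest G1 pup, while in G3 only replicate 2 did, the library with the muscle transcripts. The G2 mean was above the G1 mean by 0.73 on the log2 scale (standard error 0.33, 95% interval 0.02 to 1.45, adjusted p = 0.499 from limma), a 1.66-fold difference on the deposited scale. Its unadjusted pass in G2 stood in 3 of the 12 fits that each left out 1 pup. G3 was above G1 by 0.58 (standard error 0.47, interval -0.45 to 1.61, adjusted p = 0.556), and by 0.16 without G3 replicate 2 (adjusted p = 0.814). The part of the muscle transcripts in that reading was not tested.

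Angptl4 (ILMN_1360466, chr7:15252450-15259971), the secreted inhibitor of lipoprotein lipase, read 9.22 to 9.75 in G1 with a median of 9.49. It read 9.57 to 10.26 in G2 (median 9.90) and 9.24 to 10.86 in G3 (median 9.73). In each exposed group 3 pups lay above all of G1, in G2 the 3 males. The difference from G1 was 0.42 in G2 (standard error 0.13, interval 0.14 to 0.70, adjusted p = 0.450) and 0.44 in G3 (standard error 0.26, interval -0.13 to 1.01, adjusted p = 0.401), and 0.25 in G3 without replicate 2. A second, dim Angptl4 probe (ILMN_1530352) read 7.91 in G1, 7.88 in G2 and 7.88 in G3 on average, near the median probe, and carried no such difference.

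Creb3l3 (ILMN_1376969, chr7:9273320-9281755), a membrane-bound transcription factor of the liver that is known in mice to act with PPAR alpha on Fgf21, read 11.87 to 12.37 in G1 (median 12.07). The G2 pups read 12.13 to 12.80 (median 12.43) and the G3 pups 12.06 to 12.64 (median 12.23). In G2 4 of the G1 pups fell below the lowest G2 pup. It stood above G1 by 0.35 in G2 (standard error 0.11, interval 0.10 to 0.59, adjusted p = 0.462) and by 0.19 in G3 (standard error 0.10, interval -0.03 to 0.41, adjusted p = 0.340), and by 0.12 in G3 without replicate 2 (adjusted p = 0.491).

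Pdk4 (ILMN_1364094, chr4:34558327-34568329), the kinase that switches off pyruvate dehydrogenase and so spares glucose in fasting, read 8.13 to 8.90 in G1 (median 8.38). It read 8.59 to 9.15 in G2 (median 8.87) and 8.61 to 9.15 in G3 (median 9.03). Replicates 3 and 6 of G1 overlapped the exposed pups, and the other 4 lay below every pup of G2 and of G3. The difference was 0.37 in G2 (standard error 0.14, interval 0.07 to 0.67, adjusted p = 0.485) and 0.45 in G3 (standard error 0.14, interval 0.14 to 0.76, adjusted p = 0.129), a 1.37-fold difference at the higher dose. Without G3 replicate 2 the G3 difference was 0.475 (limma adjusted p = 0.161). Without G1 replicate 6 it was 0.53 and passed (adjusted p = 0.0429), in a fit that called 1434 probes in place of 18. Over the 12 fits that each left out 1 pup, that was the 1 fit in which Pdk4 passed in G3 (adjusted p up to 0.232).

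Cd36 (ILMN_1361328, chr4:18209088-18302142), the fatty acid translocase of the cell membrane, was the member of lowest p in G2. It read 9.64 to 10.55 in G1 (median 10.14), 10.29 to 11.42 in G2 (median 10.87) and 10.31 to 10.48 in G3 (median 10.40). Of the 6 G2 pups 5 lay above the highest G1 pup and replicate 5 lay inside the G1 range. No G3 pup lay above the highest G1 pup, yet 5 of the 6 G1 pups lay below the lowest G3 pup, since the G3 pups spanned only 0.18. The difference from G1 was 0.73 in G2 (standard error 0.19, interval 0.31 to 1.15, adjusted p = 0.419) and 0.26 in G3 (standard error 0.12, interval 0.00 to 0.51, adjusted p = 0.264). Without G1 replicate 5 the G3 difference was 0.16, and without G3 replicate 2 it was 0.25 with an unadjusted limma p of 0.0778. The unadjusted pass of Cd36 in G3 stood in 2 of the 12 fits without 1 pup. For Cd36 in G2 the exact permutation test of group labels (two-sided) gave p = 0.00433, unadjusted, among 24 such tests in the 8 genes, where the smallest p possible is 0.00216.

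Fabp1 (ILMN_1374405, chr4:104744302-104753119), the fatty acid binding protein of the liver cytosol, was bright in every pup. Its readings were 14.99 to 15.17 in G1 (median 15.12), 15.05 to 15.21 in G2 (median 15.15) and 14.97 to 15.26 in G3 (median 15.05). The groups lay on top of each other. The differences were 0.04 in G2 (interval -0.03 to 0.12, adjusted p = 0.690) and -0.01 in G3 (interval -0.13 to 0.11, adjusted p = 0.954). No intensity or saturation flag was used here, so a ceiling of the scale at this level was not tested.

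Plin2 (ILMN_1357171, chr5:106202634-106258748), the coat protein of lipid droplets, read 12.09 to 13.55 in G1 (median 12.86). The exposed pups spread less, with 12.91 to 13.44 in G2 (median 13.31) and 12.96 to 13.42 in G3 (median 13.12). The 3 female G1 pups lay below every exposed pup, and the 3 male G1 pups lay among or above them. The differences were 0.36 in G2 (standard error 0.23, interval -0.15 to 0.87, adjusted p = 0.617) and 0.31 in G3 (standard error 0.23, interval -0.19 to 0.81, adjusted p = 0.511). Without G1 replicate 5, the lowest of the 3 females, they were 0.21 and 0.16.

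Vnn1 (ILMN_1362604, chr1:23356324-23366629), the pantetheinase, read 8.26 to 8.94 in G1 (median 8.55), 8.33 to 8.82 in G2 (median 8.66) and 8.30 to 9.38 in G3 (median 8.67). The G2 range lay inside that of G1, while replicates 2 and 3 of G3, both males, lay above the highest G1 pup. The differences were 0.05 in G2 (interval -0.22 to 0.31, adjusted p = 0.927) and 0.14 in G3 (interval -0.25 to 0.54, adjusted p = 0.723). Summed markers of other cell types ran, as log2 of the sum, from 12.78 to 13.37 in G2 and 12.76 to 13.62 in G3 for 7 of 12 macrophage genes (G1 12.89 to 13.32), and from 11.14 to 11.42 and 11.18 to 11.74 for 6 of 7 adipocyte genes (G1 11.27 to 11.55). The adipocyte hormone Adipoq lay at 7.71 to 7.80 in every pup. Summed erythroid markers read 15.85 to 16.41 in G2, 16.22 to 16.37 in G3 and 16.24 to 16.45 in G1.

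**Figure D2:**
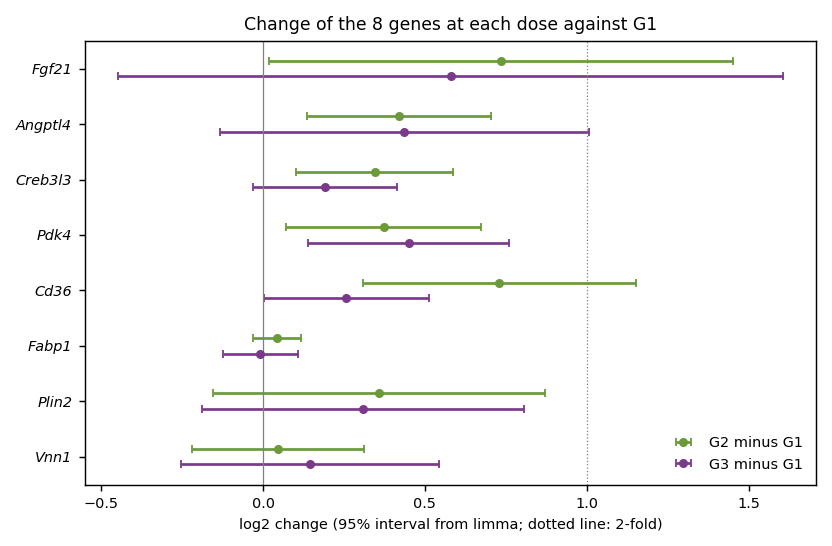
Difference in log2 expression from G1 for each gene, G2 in green and G3 in purple, with 95% intervals from limma; the dotted line marks 2-fold. In G2 the intervals of Fgf21, Angptl4, Creb3l3, Pdk4 and Cd36 lie above 0, in G3 those of Pdk4 and Cd36, and no point reaches the 2-fold line.

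Between the doses, G3 against G2, no gene was called (0.0178% of all probes were). Cd36 was lower in G3 than in G2 by 0.47 at an unadjusted p (difference -0.47, standard error 0.16, interval -0.82 to -0.13, adjusted p = 0.409), 1 of 8 beside 5.29% of all probes lower. For the other 7 genes the differences between doses were -0.16 to 0.10 with adjusted p from 0.722 to 0.992, and the intervals were wide for Fgf21 (-1.25 to 0.94). In the F-test over the 3 groups none of the 8 was called (0.186% of all probes were), and 3 passed an unadjusted p, beside 17.0% of all probes: Cd36 (F = 10.4, adjusted p = 0.0978), Pdk4 (F = 6.73, adjusted p = 0.156) and Creb3l3 (F = 4.67, adjusted p = 0.226). Without G1 replicate 6, Pdk4 passed the F-test (adjusted p = 0.0439), in a fit that called 902 probes.

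Sex was the other labelled difference between pups. With exposure groups pooled, females read lower than males by 0.77 for Fgf21, 0.43 for Angptl4, 0.37 for Plin2 and 0.32 for Vnn1 on the log2 scale (differences -0.77, -0.43, -0.37 and -0.32, each adjusted p = 0.899), with Fgf21 at -0.52 without G3 replicate 2. These 4 of 8 passed an unadjusted p, beside 2.45% of all probes lower in females, and none was called (0.00444% of all probes were). The sexes did not differ alike in each group. Vnn1 averaged 8.63 in males and 8.55 in females of G1, and 9.03 and 8.44 in G3. Angptl4 averaged 9.54 in males and 9.42 in females of G1, and 10.26 and 9.57 in G3. Split by sex, the 3 male G1 pups averaged 8.29 for Fgf21 and the 3 males of G2 and G3 averaged 9.54 and 9.69, differences of 1.25 and 1.40. In females the averages were 8.41 in G1, 8.64 in G2 and 8.17 in G3, differences of 0.22 and -0.24. Without G3 replicate 2 the male difference in G3 was 0.73. Without G1 replicate 4, which read 9.28 against 7.86 and 8.09 in the other G1 females, the female differences were 0.66 in G2 and 0.20 in G3. In G2 the female difference was 0.06 without G1 replicate 6 and -0.05 without G1 replicate 5, and it ran from -0.16 to 0.47 without 1 G2 female. Every male of both exposed groups lay above the mean of the G1 males, and no female of G3 lay above the mean of the 3 G1 females, while all 3 did with G1 replicate 4 left out. For Plin2 the order was turned. Females averaged 12.37 in G1, 13.26 in G2 and 13.07 in G3 (differences of 0.89 and 0.69), and males 13.35, 13.18 and 13.27 (differences of -0.17 and -0.08).

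Tested as an interaction of sex and exposure over all 18 arrays, no member was called in G2 (0% of all probes were) or in G3 (0.00444%). At an unadjusted p, the Plin2 difference was larger in females in G2 by 1.06 and in G3 by 0.77 (standard error 0.23 and limma adjusted p = 1.00 for both), 1 of 8 each time beside 2.16% and 2.07% of all probes. Fgf21 and Creb3l3 went the other way in G3, with the female difference minus the male difference at -1.64 (standard error 0.72) and -0.50 (standard error 0.19), 2 of 8 beside 2.08% of all probes, both with an adjusted p of 1.00. Without G3 replicate 2 they were -0.97 and -0.40 and neither passed at an unadjusted p of 0.05. With sex labels permuted within groups (400 arrangements), the exact two-sided p was 0.025 for Plin2 in G2, 0.095 in G3, 0.085 for Fgf21 in G3 and 0.01 for Creb3l3 in G3, among 16 such tests and unadjusted. Cd36 and Pdk4 lay above the G1 mean of their own sex in all 3 males and all 3 females of both exposed groups. For Cd36 the male difference in G3 was only 0.06, and -0.02 without G1 replicate 3, with 1 of 3 males above. For Pdk4, 2 of 3 females were above in each exposed group without G1 replicate 4. The share of all probes with such a pattern was not counted.

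**Figure D3:**
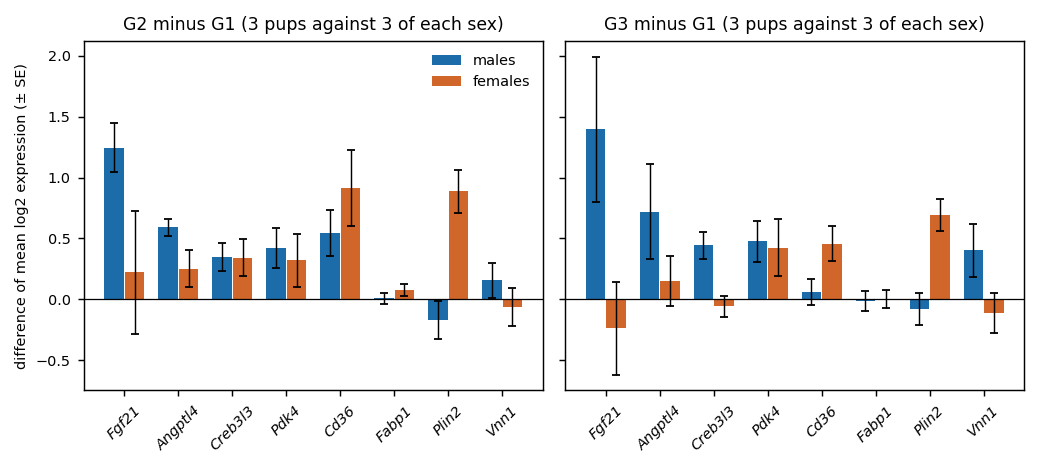
Difference of mean log2 expression from G1 in males (blue) and females (orange), 3 pups against 3, with standard errors from limma within 1 sex, G2 on the left and G3 on the right. For Fgf21 the male bars (1.25 and 1.40) exceed the female bars (0.22 and -0.24), for Plin2 the female bars (0.89 and 0.69) exceed the male bars (-0.17 and -0.08), and the bars of Pdk4 are alike in height.

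Between pups of 1 group the genes differed widely in spread. Fgf21 had a within-group SD of 0.81 on the log2 scale, above 99.8% of all probes, followed by Angptl4 (0.42), Plin2 (0.37), Cd36 (0.29), Vnn1 (0.29), Pdk4 (0.24), Creb3l3 (0.20) and Fabp1 (0.09). By group the SD of Fgf21 was 0.504 in G1, 0.690 in G2 and 1.115 in G3, where replicate 2 read 11.03. All probes include the many near the median probe, and Creb3l3 already lay above 92.4% of them. Over the 18 pups with group means removed, given as a description without a test, Fgf21 and Angptl4 went together (r = 0.78), and still did without G3 replicate 2 (r = 0.60). Plin2 and Cd36 correlated at 0.61 with and without that pup, and Fgf21 and Vnn1 at 0.53 and 0.54. The r of Fgf21 with Creb3l3, 0.45, was 0.14 without it. All pairs share the same arrays and sexes, which were not removed.

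**Figure D4:**
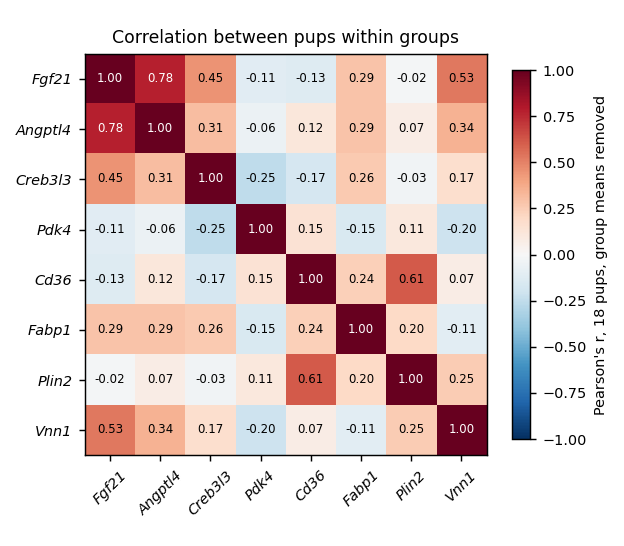
Pearson's r between each pair of genes over 18 pups with group means removed, red for positive and blue for negative. The warmest cells off the diagonal are Fgf21 with Angptl4 (0.78), Plin2 with Cd36 (0.61) and Fgf21 with Vnn1 (0.53), while Pdk4 stays between -0.25 and 0.15 with all others.

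The genes most like each member over the same 18 pups were named by their highest r, again as a description. For Fgf21 they were Chac1, a glutathione-degrading enzyme (r = 0.85, and 0.68 without G3 replicate 2), Pax8 (0.84 and 0.63) and Klf10 (0.81 and 0.61). For Angptl4 they were Chac1 (0.82, and 0.67 without that pup), Nbn (0.80 and 0.79) and Dnajc6 (0.79 and 0.64). Vnn1 went with Slc22a5, the carnitine transporter (0.87), Gjb2 (0.84) and Terc (0.82). Creb3l3 went with Arsa (0.85), Phyh, the peroxisomal enzyme of phytanic acid oxidation (0.84), and Fgfrl1 (0.78). Fabp1 was nearest to the fibrinogen chains Fgb (0.81) and Fgg (0.80) and to Rnase4 (0.80), which sit at the same bright end of the scale (means of 15.36 to 15.45). Pdk4 was nearest to Kpnb1 (0.84), Snapc3 (0.83) and Abhd11 (0.83), Plin2 to Or52ac1 (0.77), Prmt3 (0.76) and Fbxo48 (0.75), and Cd36 to Tm4sf19 (0.83), Gzmc (0.78) and Krtap13-2 (0.75). The 3 partners of Cd36 read 7.72 to 7.79 on average, below the median probe of 7.84, as did Pax8 (7.80), Dnajc6 (7.72) and Fbxo48 (7.75), while Or52ac1 lay at it (7.84). Abhd11 (7.87) and Chac1 (7.96), the nearest gene to both Fgf21 and Angptl4, lay only a little above the median probe.

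The other genes of the pathway were taken from 11 lists, chosen like the members with results known. Of all 13337 genes, 3 were called in G2, all higher, and 656 were higher and 849 lower unadjusted; in G3 5 were called higher and 11 lower, and 1336 were higher and 1453 lower unadjusted. The 3 called in G2 stood in these lists, 2 of them in peroxisomal and microsomal oxidation (15 of 20 listed genes measured). No listed gene was called in G3, but that rests on 1 pup: without G1 replicate 6 the G3 calls were 6 in peroxisomal and microsomal oxidation, 4 each in the droplet and pyruvate dehydrogenase lists, 2 each in mitochondrial oxidation, uptake, CREB3 and lipogenesis, and 1 each in the FGF21 receptor and fasting lists. Without G3 replicate 6 peroxisomal and microsomal oxidation had 1. Crot, which moves shortened fatty acids out of peroxisomes as carnitine esters, rose in G2 by 0.99 (standard error 0.11) at an adjusted p of 0.0393. Cyp4a3, a fatty acid omega-hydroxylase, rose by 1.08 (standard error 0.13) at an adjusted p of 0.0470. Cyp4a2 and Cyp4a3 are close paralogs, and whether each probe reads only its own gene was not tested. At an unadjusted p, 8 of the 15 were higher and 1 lower in each exposed group, with medians of 0.10 in G2 and 0.19 in G3. In G3 Crot differed by 0.90 (adjusted p = 0.0576), Cyp4a2 by 1.06 (0.0584) and Hsd17b4, a peroxisomal beta-oxidation enzyme, by 0.19 (0.0584). The G2 call of Crot stood in 3 of the 12 fits that each left out 1 pup and that of Cyp4a3 in 2 (adjusted p up to 0.194 and 0.209).

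Mitochondrial oxidation and ketone synthesis (18 of 20 measured) had no call in either group. Unadjusted, 4 were higher and 1 lower in both groups, with medians of 0.06 and 0.10. The enoyl-CoA isomerase Eci1 differed by 0.42 in G2 (adjusted p = 0.419), Hadhb of the trifunctional protein by 0.61 in G2 and 0.56 in G3 (0.419 and 0.0915), and Cpt1a, the entry enzyme of the pathway, by 0.81 in G2 (0.444). Etfdh, which hands electrons to the respiratory chain, differed by 0.42 in G3 (adjusted p = 0.0584).

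Of 12 measured genes of gluconeogenesis and fasting, G6pc1, the glucose-6-phosphatase that releases glucose into blood, was called in G2, where it rose by 1.25 (standard error 0.16, adjusted p = 0.0474). The call stood in 2 of the 12 fits without 1 pup. Unadjusted, 3 of the 12 genes were higher and 1 lower in G2, and 1 was higher and 1 lower in G3, with medians of 0.08 and 0.03. In G3 G6pc1 differed by 1.23 (adjusted p = 0.0584) and Sds, the serine dehydratase, by -1.06 (0.224). Pck1 and Tat differed by 0.78 and 0.54 in G2 (adjusted p = 0.418 and 0.460). In lipogenesis of the fed state (8 of 13 measured) none was called. Unadjusted, 1 was higher and 1 lower in G2 and 4 were lower in G3, where the median was -0.35 and Acly, which makes cytosolic acetyl-CoA, differed by -1.001 (adjusted p = 0.0584), the glycolytic enzyme Pklr by -0.70 and Thrsp by -0.47 (0.126 each).

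Lists with the members' own roles had medians close to that of all genes. Of 14 measured genes of fatty acid uptake, binding and activation none was called. One was higher unadjusted in G2, and 2 were higher and 2 lower in G3, with medians of 0.02 and -0.01. Fabp7, a fatty acid binding protein known from brain, differed by 0.72 in G3 (adjusted p = 0.0632), and the acyl-CoA synthetases Acsl4 and Acsl5 by -0.43 and -0.29. Of 20 droplet and triglyceride genes, 5 were higher and 1 lower in G2 and 3 higher and 2 lower in G3, again none called, with medians of 0.01 and -0.04. Of all 13337 genes, 656 were higher unadjusted in G2 and 1336 in G3. Without G2 replicate 4 the G2 count of droplet genes higher was 2. Cidea, a lipid droplet protein, differed by 0.30 in G3 (adjusted p = 0.0666), Fitm2, a droplet-forming protein of the endoplasmic reticulum, by -0.55 (0.0777), Plin5 by 0.13 in G2 and the lysosomal lipase Lipa by -0.51 in G2 (0.444 and 0.463). Without G3 replicate 2, the G3 counts of uptake and droplet genes higher were 1 and 1.

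The partners of the secreted and regulatory genes gave no call either. Of 9 measured FGF21 receptor and lipoprotein lipase genes 1 was higher unadjusted in each group, Fgfr4 in G2 (0.33, adjusted p = 0.468) and Fgfr2 in G3 (0.13, adjusted p = 0.0847). Among 9 genes of pyruvate dehydrogenase and its regulators, 1 was lower in G2 and 3 were higher and 3 lower in G3. Pdk2, the other main kinase of the complex in liver, differed by -0.27 in G2 and -0.31 in G3 (adjusted p = 0.468 and 0.116), opposite in sign to Pdk4, and the E3 subunit Dld by 0.72 in G3 (0.103). In coenzyme A synthesis (8 of 8 measured), where pantothenate kinases act on the product of Vnn1, 2 were higher in G2 and 3 in G3, among them Pank1 (0.22 and 0.23) and Pank3 (0.05 and 0.08). Of 9 CREB3 family and processing genes 1 was lower in G2, and 2 were higher and 3 lower in G3, with Creb3l1 at -0.16 and -0.25. Of 14 receptors, partners and coregulators none passed unadjusted in G2, and 2 were higher and 2 lower in G3, among them Nr1h3 at -0.29 and Ppargc1b at -0.08.

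**Figure D5:**
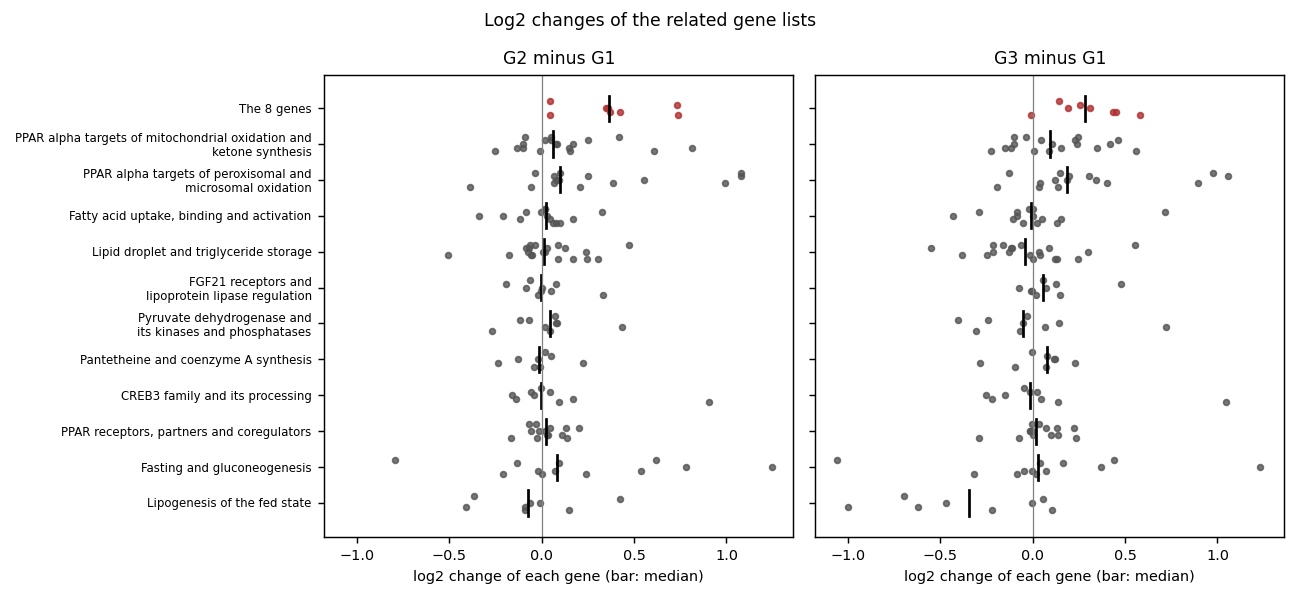
Log2 difference from G1 of each measured gene in the 8 genes described here (red) and in 11 related lists (grey), G2 on the left and G3 on the right, with black bars at the medians. The median of the 8 genes is 0.36 in G2 and 0.28 in G3, and that of lipogenesis lies at -0.08 and -0.35.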

How the data were processed

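RNA from 18 rat livers was hybridized to BeadChips, 1 array per pup. Per the labels and the methods, the authors used lumi within FlexArray for preprocessing and normalization. Which lumi release and which normalization they chose is not given in the sources read. The deposited log2 expression values of 22523 probes were used as they stand, without a filter. Of these, 13793 probes carry 1 gene symbol (13752 matched to RefSeq by gene ID). The brightest probe over the 18 arrays stands for a gene.

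Groups were compared with limma 3.58.1 in R 4.3.3 (lmFit and eBayes, two-sided, sexes pooled, no covariate) on the 12 arrays of each pair of groups, adjusted over all probes by Benjamini-Hochberg. A gene was called at an adjusted p of 0.05, and the 2-fold limit that the methods add was an alternative. The two-sample Bayesian t-test named in the methods was not run. The F-test, the sex difference and the interaction used all 18 arrays. Single genes were also tested by exact permutation (24 tests between groups and 16 of sex and exposure). These p-values are printed unadjusted, and none passed 0.05 after Benjamini-Hochberg adjustment over its family. The limma fit of G2 against G1 was tested on simulated data, with pups drawn independently and without sex or litter effects. The F-test and the sex, interaction and permutation tests were not. The members and gene lists were chosen with earlier results of these data known, so they give no independent support. Named genes are the 8 members, genes from among the 3 of smallest p per list and exposed group, and the 3 genes most correlated with each member (r within groups). Not all genes of smallest p are printed. Alb, Acta1 and Adipoq were chosen after their values were seen.

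Alternatives were all 3 groups fitted together, a trended variance prior, dim probes left out, quantile normalization, median centring, sex as a covariate, a replicate block, array weights, 1 sex alone, the mean over a gene's probes, an adjusted p of 0.01, and each pup left out in turn.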

Additional observations from a re-analysis of the deposited data

Results flagged for a closer look

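Fgf21 in G3 replicate 2, a male, read 11.03, far above the next G3 pup at 9.20. Its gap made up a share of 0.629 of the group's range. The same library held the muscle transcripts (log2 of the summed markers 15.06). Chance flags about 1 in 20 groups by this measure, and 24 groups of values were examined.

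The Fgf21 difference of G3 from G1 was above 0 in all 3 males and below 0 in all 3 females, with a female minus male difference of -1.64. It rests on single pups: without G1 replicate 4 the female difference was 0.20 and all 3 G3 females lay above the G1 mean of their sex, and without G3 replicate 2 the female minus male difference was -0.97. The difference itself did not pass (adjusted p = 1.00 from limma; exact permutation p = 0.085, unadjusted). Plin2 in G2 did the reverse, with all 3 males below and all 3 females above the G1 mean of their sex. Its female minus male difference was 1.06 (adjusted p = 1.00 from limma, exact permutation p = 0.025, unadjusted). The male side rests on 1 pup: without G1 replicate 2, 2 of the 3 G2 males lay above the G1 male mean. The male difference was then -0.07.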

How the results depend on the processing

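No member was called in G2 against G1 under any alternative (lowest adjusted p 0.175, Pdk4 without G1 replicate 6). At an unadjusted p, the G2 count of 5 members was 3 with all 3 groups fitted together and 2 in females alone, 4 with array weights, and 4 to 5 with 1 pup left out. Without G1 replicate 2 the 5 held Plin2 in place of Fgf21. In G3 the count of 2 was 1 with all 3 groups together, 1 with the trended prior and 1 to 2 with 1 pup left out, falling to 1 when the pup left out was G1 replicate 3, 5, 6 or, of G3, replicate 1, 2, 3, 5. Without G1 replicate 4 or G3 replicate 6 the 2 held Creb3l3 in place of Cd36. Without G3 replicate 4 they held Angptl4 in place of Cd36. Members called ran from 0 to 1 with 1 pup left out in G3 against G1 and in the F-test, both times Pdk4 without G1 replicate 6. The cause was not tested. Over all probes, G3 calls numbered 18, but 475 with all 3 groups together, 247 with the trended prior, 380 with dim probes left out, 465 with array weights and 0 with the replicate block. Leaving each pup out within a sex was added after seeing the data.

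No member had passed an adjusted p in the main fits. Apart from pups left out within a sex, signs turned only for differences that had not passed an unadjusted p of 0.05. With 1 pup left out within a sex, 2 differences that had passed unadjusted also turned. Fgf21 in G2 was -0.05 in females without G1 replicate 5 and -0.16 without G2 replicate 5. Cd36 in G3 was -0.02 in males without G1 replicate 3. In males alone Plin2 was -0.17 in G2 and -0.077 in G3, and G3 minus G2 was 0.15 for Fgf21, 0.093 for Plin2 and 0.094 for Creb3l3. In females alone Vnn1 was -0.062 in G2 and -0.11 in G3, Fgf21 -0.24 and Creb3l3 -0.059 in G3, and G3 minus G2 was -0.10 for Angptl4 and -0.052 for Vnn1. Fabp1 in G3 was 0.018 after quantile normalization. With 1 pup left out, Vnn1 ran from -0.019 to 0.12 in G2 and Fabp1 from -0.043 to 0.015 in G3, and G3 minus G2 from -0.57 to 0.011 for Fgf21, -0.17 to 0.15 for Angptl4 and -0.033 to 0.18 for Vnn1.

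Replicate numbers did not pair pups (same-number correlations from -0.34 to 0.23), and 1 of 18 matched best with its own number. With the replicate block no member was called, Cd36 in G2 stayed at 0.73 (adjusted p = 0.297) and 4 members passed unadjusted in G2. The number of arrays and the unnamed litters limit what these values can show.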
